A study of Mus musculus with 6 samples.

Results

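Toll-like receptors are innate immune sensors of microbial molecules, and the 10 genes described here, Tlr1 to Tlr9 and Tlr13, were taken by their names from a deposited count table of 54532 genes, in which all 10 were found. They were compared in freshly isolated bone marrow cells from the femurs of wild-type (WT) mice, between 3 libraries of mice kept under hindlimb unloading for 4 weeks (OP-HU1 to OP-HU3, called unloaded 1 to 3) and 3 libraries of mice without treatment (control 1 to 3). Hindlimb unloading lifts the hind limbs off the floor so that they carry no weight, and serves as a model of disuse osteoporosis. Age, sex and strain are not given in the labels used here, nor do they say if each library is a different mouse; p-values here thus reflect how much these samples vary, part of which may be technical.

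Each receptor pairs a leucine-rich repeat domain, which meets the ligand, with a cytoplasmic TIR domain that recruits the adaptors MyD88 or TRIF and leads to NF-kB and interferon regulatory factors. Tlr1, Tlr2, Tlr4, Tlr5 and Tlr6 encode receptors of the cell surface that meet lipopeptides, lipopolysaccharide and flagellin of bacteria. Tlr3, Tlr7, Tlr8, Tlr9 and Tlr13 encode receptors of endosomes, which meet nucleic acids and need the chaperone Unc93b1 to get there. In marrow, these genes are used mainly by monocytes, macrophages, neutrophils, dendritic cells and B cells, and signals through the receptors can alter both blood cell output and osteoclast formation.

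The libraries held 15850986 to 16543465 counts in the unloaded group and 16727836 to 17775506 in the control group. Markers of marrow cells were present in all 6, led by neutrophil genes with a summed level of 47670 to 58340 CPM (read counts scaled to a common library size by TMM) in unloaded and 51160 to 58900 CPM in control libraries. The unloaded 1 library stood apart: its score on the leading principal component was 51.3, against -13.8 to -7.37 in the other 5, and mitochondrial genes took 0.439% of its counts, against 1.045% to 1.273%. Results that rest on it are therefore given with and without it.

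None of the 10 Toll-like receptor genes passed edgeR's quasi-likelihood test between unloaded and control marrow, and for every one of them the values of both groups overlapped. Tlr5, Tlr3 and Tlr9 had the smallest p, with lower means in unloaded marrow, and Tlr1 had the highest positive fold change. The genes instead differed among libraries within a group: 7 of the 10, with Tlr2 and Tlr13 as the most abundant, were highest in unloaded 1 and control 1. In counts, the 10 genes together gave 7240, 5404 and 5784 reads in unloaded 1 to 3, against 7366, 5778 and 6100 in control 1 to 3.

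All 10 genes passed the filter on low counts and were tested among 15015 genes. Of all tested genes 0% were called at an adjusted p under 0.05, so the count of 0 among the 10 was that of the whole table. DESeq2 called 0.233% of all genes and none of the 10, but it gave Tlr3 no adjusted p. At an unadjusted p under 0.05 stood 0 of the 10, where 5.85% of all genes did, and groups without overlap were seen in 0 of the 10 against 11.9% of all genes, 5.46% with unloaded higher and 6.4% with unloaded lower. Fold changes were negative for 5 and positive for 5 of the genes, with a median log2 fold change of 0.02, beside a median of 0.01 over all tested genes. Without unloaded 1 the count was 9 negative of 10 with a median of -0.16, and without unloaded 2, unloaded 3 or control 1 it was 3 negative in each case. Without control 2 it was 7, and without control 3 it was 6.

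**Figure D1:**
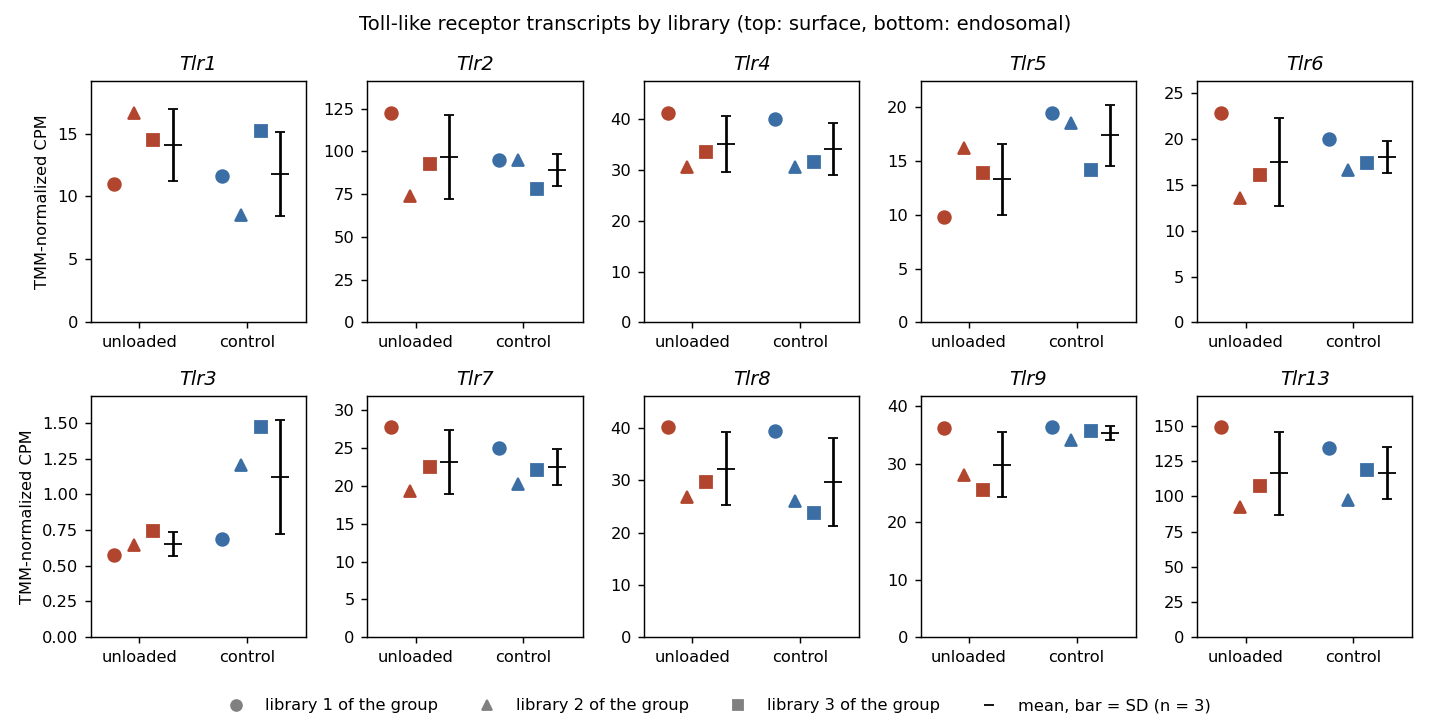
TMM-normalized CPM (vertical axes, from 0) of the 10 genes in each library, with unloaded libraries on the left and control libraries on the right of each panel; symbols give the library number and black bars the mean ± SD (n = 3). In every panel the groups overlap, and the circles of unloaded 1 and control 1 are the highest points for Tlr4, Tlr6, Tlr7, Tlr8, Tlr9 and Tlr13.

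Levels were compared between genes as CPM per kb of deposited gene length. Tlr2, the common partner in sensing lipopeptides, was the highest at 32.04 ± 8.14 CPM per kb in unloaded and 29.6 ± 3.16 in control marrow (SD, n = 3 each). Tlr13, which in mice senses bacterial ribosomal RNA, followed at 27.0 ± 6.80 and 27.1 ± 4.26 CPM per kb, and the lowest Tlr13 library lay above the highest library of any gene further down. Tlr2 was above Tlr13 in 5 of 6 libraries, but their ranges overlapped. Tlr9, the receptor for unmethylated CpG DNA, stood at 8.60 ± 1.61 CPM per kb in unloaded and 10.2 ± 0.333 in control marrow. Tlr8, the closest relative of Tlr7, stood at 8.97 ± 1.95 and 8.28 ± 2.36 CPM per kb, and Tlr9 was above it in 3 of 6 libraries, so their order was not resolved.

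Tlr4, Tlr7, Tlr6, Tlr1 and Tlr5 followed with means over all 6 libraries of 6.23, 5.59, 4.76, 3.86 and 3.20 CPM per kb, and the ranges of neighbours within this run overlapped, as did those of Tlr8 and Tlr4. Tlr4 was nevertheless above Tlr7 and Tlr7 above Tlr6 in 6 of 6 libraries. Tlr6 was above Tlr1, and Tlr1 above Tlr5, in 4 of 6 libraries each. Tlr3, a sensor of RNA duplexes such as those of viruses, was lowest at 0.126 ± 0.0161 CPM per kb in unloaded and 0.215 ± 0.0764 in control marrow. It rested on 9 to 25 counts per library, and its highest library lay below the lowest of any other member. The surface genes gave 45.0%, 47.5% and 47.9% of the reads of the 10 genes in unloaded 1 to 3 and 44.1%, 48.6% and 43.7% in control 1 to 3, the rest coming from the endosomal genes.

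**Figure D2:**
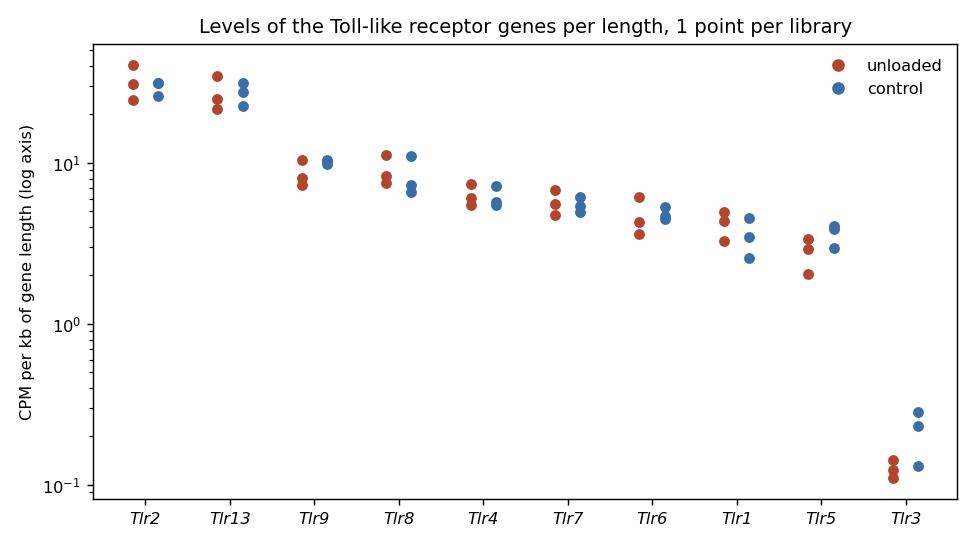
Level of each gene in CPM per kb of gene length (log axis), 1 point per library, with unloaded libraries left of control libraries, in falling order of the mean over 6 libraries. Tlr2 and Tlr13 form the top pair at 21.5 to 40.7 CPM per kb, 7 genes lie between 2.04 and 11.2, and Tlr3 lies at 0.110 to 0.282.

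Among the surface receptors, Tlr5 had the smallest p. Its product is the receptor for flagellin, and the gene (ENSMUSG00000079164) lies on mm10 chromosome 1 at 182954788 to 182976044. Tlr5 was at 9.75, 16.2 and 13.9 CPM in unloaded 1 to 3, against 19.5, 18.5 and 14.2 CPM in control 1 to 3. The lowest control value lay below the unloaded 2 value, so the groups overlapped, and unloaded 1 was the lowest library of all. The log2 fold change was -0.39 ± 0.20 (SE; 95% interval -0.84 to 0.06), with an edgeR adjusted p of 0.883. Without unloaded 1 it was -0.21, and it stayed negative, between -0.56 and -0.21, whichever library was left out.

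Tlr1 and Tlr6 encode alternative partners of Tlr2, and they lie next to each other on mm10 chromosome 5, Tlr1 (ENSMUSG00000044827) at 64924679 to 64933563 and Tlr6 (ENSMUSG00000051498) at 64952031 to 64960097, both on the minus strand. Their coding sequences, in GENCODE M21 a single coding exon each, share a run of 229 identical bases, which is shown because reads from it cannot be placed in 1 of these genes by sequence. Of all windows of 50 bases in the coding sequence, 19.4% of those of Tlr1 and 19.2% of those of Tlr6 occur in the other gene, while the longest run shared by any other pair of the 10 genes is 16 bases. The run lies at chr5:64925537-64925765 in Tlr1 and at chr5:64953828-64954056 in Tlr6 (GRCm38, minus strand), and is given once in lower case, 5′ to 3′, since both genes hold the same letters.
Tlr1 and Tlr6: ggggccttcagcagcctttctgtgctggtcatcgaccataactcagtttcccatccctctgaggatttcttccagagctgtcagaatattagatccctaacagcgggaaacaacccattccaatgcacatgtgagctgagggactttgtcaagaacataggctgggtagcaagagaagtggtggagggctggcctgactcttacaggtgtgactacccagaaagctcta
How such reads were counted is not given in the sources used here, so the split between the 2 genes is uncertain.

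Tlr1 was at 11.02, 16.7 and 14.5 CPM in unloaded 1 to 3, against 11.6, 8.56 and 15.2 CPM in control 1 to 3, with the lowest and highest library in different groups and wide overlap. Its log2 fold change was 0.25 ± 0.23 (SE; 95% interval -0.25 to 0.76; edgeR adjusted p = 0.917). It was 0.40 without unloaded 1, 0.48 without control 3 and 0.07 without control 2, the library with the lowest value. Tlr6 was at 22.9, 13.6 and 16.1 CPM in unloaded 1 to 3, against 19.96, 16.6 and 17.4 CPM in control 1 to 3, so that the unloaded libraries held both extremes. Its log2 fold change was -0.04 ± 0.19 (95% interval -0.47 to 0.38, edgeR adjusted p = 0.981), and -0.28 without unloaded 1. The 2 neighbours did not follow one profile: the ratio of Tlr1 to Tlr6 counts was 0.482, 1.23 and 0.900 in unloaded 1 to 3 and 0.582, 0.515 and 0.875 in control 1 to 3.

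Tlr2 (ENSMUSG00000027995, chromosome 3, 83836272 to 83841767) was at 123, 74.2 and 92.8 CPM in unloaded 1 to 3, against 94.8, 94.8 and 78.3 CPM in control 1 to 3. The highest and the lowest value were both in the unloaded group, where the SD was 24.5 CPM against 9.52 CPM in controls. The log2 fold change was 0.11 ± 0.17 (95% interval -0.26 to 0.48; edgeR adjusted p = 0.946), and -0.10 without unloaded 1. Tlr4, the lipopolysaccharide receptor gene (ENSMUSG00000039005, chromosome 4, 66827584 to 66930284), was at 41.3, 30.6 and 33.6 CPM in unloaded 1 to 3, against 39.9, 30.6 and 31.6 CPM in control 1 to 3. Library 1 was the highest of each group and the other 4 libraries lay between 30.6 and 33.6 CPM. Its log2 fold change was 0.05 ± 0.15 (95% interval -0.29 to 0.38, edgeR adjusted p = 0.979), and -0.09 without unloaded 1.

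Among the endosomal receptors, Tlr9 (ENSMUSG00000045322, chromosome 9, 106222598 to 106226883) had 3 close control values and scattered unloaded ones. It was at 36.2, 28.0 and 25.5 CPM in unloaded 1 to 3, against 36.4, 34.1 and 35.7 CPM in control 1 to 3. Unloaded 2 and 3 lay below every control, and unloaded 1 lay among the controls. The coefficient of variation was 18.7% in unloaded and 3.27% in control libraries. The log2 fold change was -0.24 ± 0.14 (SE; 95% interval -0.56 to 0.07; edgeR adjusted p = 0.890). Leaving out unloaded 1 gave -0.40, and the gene was still not called (adjusted p = 0.301 by edgeR, 0.192 by DESeq2). With each library left out in turn the log2 fold change ran from -0.40 to -0.14, and over all alternatives its adjusted p ran from 0.192 to 0.999.

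Genes of cells that use Tlr9, B cells and plasmacytoid dendritic cells, are given beside it for whole lists. The 8 B cell markers, all detected, summed to 744, 748 and 533 CPM in unloaded 1 to 3 and 799, 706 and 828 CPM in control 1 to 3. The 6 markers of plasmacytoid dendritic cells, all detected, summed to 157, 166 and 142 CPM in unloaded 1 to 3 and 181, 176 and 186 CPM in control 1 to 3. Both sums, like Tlr9, were lowest in unloaded 3, while unloaded 1 had a dendritic cell sum below every control and a Tlr9 level among the controls. Their part in the Tlr9 values was not tested. In bulk marrow, fewer cells of a type and less RNA per cell cannot be told apart.

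Tlr3 (ENSMUSG00000031639, chromosome 8, 45395665 to 45411080) was at 0.574, 0.648 and 0.741 CPM in unloaded 1 to 3, against 0.686, 1.21 and 1.47 CPM in control 1 to 3. Control 1 lay among the unloaded values, and the other 2 controls lay above all of them. With 9 to 25 counts in a library, the log2 fold change of -0.77 ± 0.43 had a 95% interval of -1.72 to 0.18 and an edgeR adjusted p of 0.886. The gene overlaps the antisense gene Gm45542, which had 0 counts. The fold change ran from -1.02 without control 1 to -0.52 without control 3.

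Tlr7 and Tlr8, both sensors of RNA in the endosome, are neighbours on the X chromosome. Tlr7 (ENSMUSG00000044583, 167304929 to 167330558) was at 27.7, 19.3 and 22.5 CPM in unloaded 1 to 3, against 25.0, 20.3 and 22.1 CPM in control 1 to 3. Tlr8 (ENSMUSG00000040522, 167242696 to 167264329) was at 40.1, 26.8 and 29.7 CPM in unloaded 1 to 3, against 39.4, 26.0 and 23.7 CPM in control 1 to 3. For both genes library 1 was the highest of its group by a margin larger than the difference between the group means. The log2 fold changes were 0.05 ± 0.16 for Tlr7 and 0.11 ± 0.21 for Tlr8. Their 95% intervals were -0.30 to 0.40 and -0.34 to 0.57, and their edgeR adjusted p 0.979 and 0.957. Leaving out unloaded 1 gave -0.10 for Tlr7 and -0.07 for Tlr8.

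Tlr13 (ENSMUSG00000033777, X chromosome, 106143204 to 106160493) was at 149, 92.4 and 108 CPM in unloaded 1 to 3, against 134, 97.6 and 119 CPM in control 1 to 3. In both groups library 1 was highest and library 2 lowest, and the group means were 116 ± 29.3 CPM in unloaded and 117 ± 18.3 CPM in control marrow (SD, n = 3 each). The log2 fold change was -0.01 ± 0.18 (95% interval -0.39 to 0.38; edgeR adjusted p = 0.998). It had 1569 to 2345 counts per library. Without unloaded 1 the log2 fold change was -0.22.

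**Figure D3:**
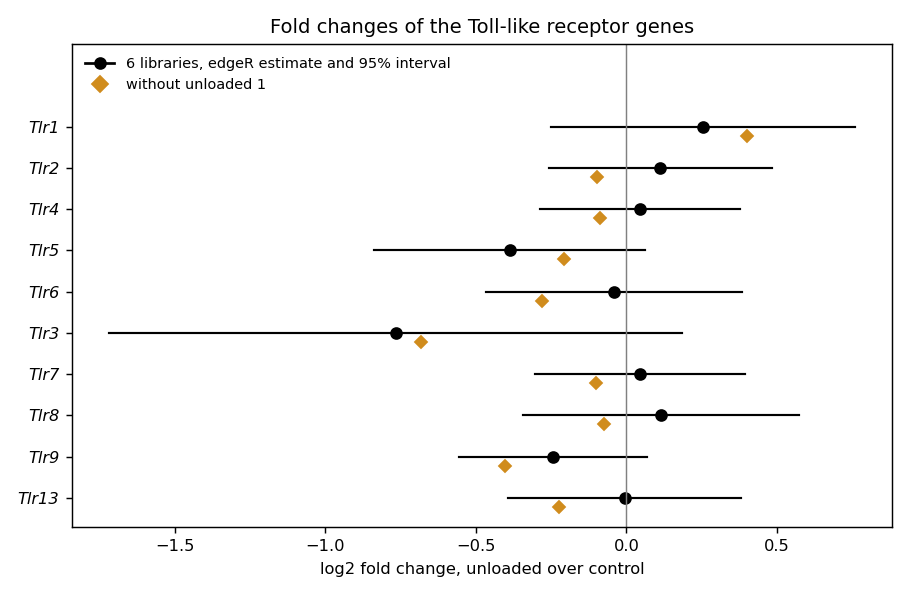
Log2 fold change of each gene, unloaded over control (horizontal axis; positive is higher in unloaded marrow), with the edgeR estimate and 95% interval from all 6 libraries (black) and the estimate without unloaded 1 (diamonds). All 10 intervals include 0, and without unloaded 1 every estimate but that of Tlr1 is below 0.

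The 10 genes fell into shared and separate profiles across the libraries. Tlr2, Tlr4, Tlr6, Tlr7, Tlr8, Tlr9 and Tlr13 had their 2 highest libraries in unloaded 1 and control 1, an order found in 8.7% of all tested genes. This order was picked from the values of the receptor genes, so its share is a description and no test. For Tlr2 control 1 and control 2 were level. Tlr4 and Tlr7 were the most alike pair, with a root mean square difference of 0.0541 between their mean-centred log2 CPM over 6 libraries. Tlr6 and Tlr13 differed by 0.0757 and Tlr7 and Tlr13 by 0.0829. Tlr1, Tlr3 and Tlr5 each differed by at least 0.387 from every other member. Tlr1, Tlr3 and Tlr5 were below their own mean in unloaded 1, by 0.193, 0.468 and 0.612 log2 units, while the 7 genes were above theirs by 0.161 to 0.421.

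The summed level of the 6 classical monocyte markers was 3599, 2860 and 3243 CPM in unloaded 1 to 3, and 3388, 3057 and 2984 CPM in control 1 to 3, highest in unloaded 1 and control 1. Fn1 was at 1428 CPM in unloaded 1, 1429 CPM in control 1 and 1022 to 1075 CPM in the other libraries. The order of the sum rested on Fn1, as the other markers without it did not sum highest in unloaded 1 and control 1. Of the 6 markers, 2 (Fn1 and Csf1r) had these as their 2 highest libraries, an order found in 8.7% of all tested genes. Ly6c2 was lowest in unloaded 1, at 563 CPM, and Ccr2 was lowest in control 1, at 285 CPM. Adgre1 alone of 7 macrophage, Flt3 alone of 6 conventional dendritic cell and Ms4a1 alone of 8 B cell markers also had that order. None of the 6 non-classical monocyte or 6 plasmacytoid dendritic cell markers had it. The 6 non-classical monocyte markers summed to 413, 504 and 457 CPM in unloaded 1 to 3 and 546, 542 and 526 CPM in control 1 to 3. The 10 neutrophil markers summed to 50490, 47670 and 58340 CPM in unloaded 1 to 3 and 54770, 58900 and 51160 CPM in control 1 to 3, and 1 of them, Cxcr2, was highest in unloaded 1 and control 1. The part of any of these cells in the receptor values was not tested.

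**Figure D4:**
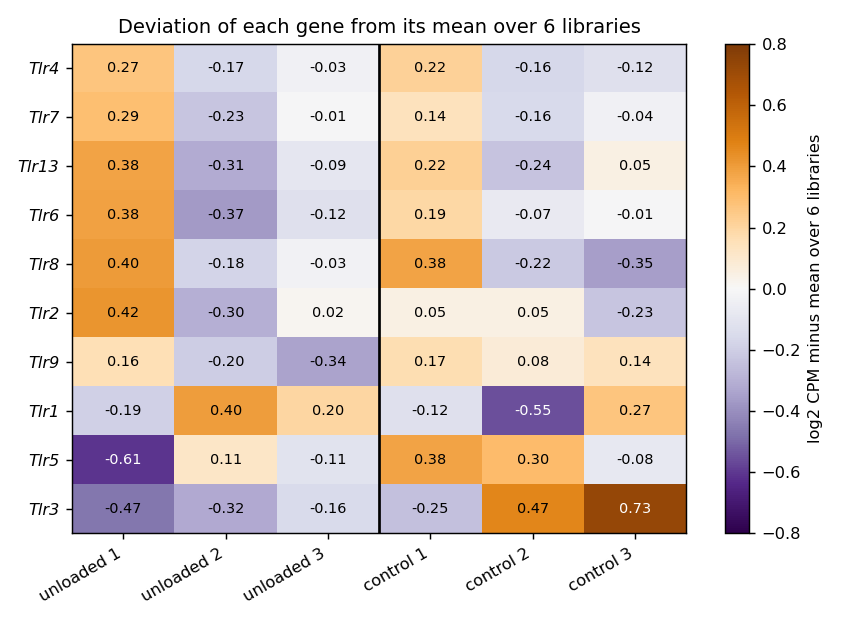
Deviation of each gene's log2 CPM from its mean over the 6 libraries (colour and number in each cell), with unloaded libraries left and control libraries right of the black line. The upper 7 rows are positive in unloaded 1 and control 1, and Tlr1, Tlr5 and Tlr3 in the lower rows differ from them and from each other.

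Promoter sequences from RefSeq (GRCm38.p6) were at hand for 8 of the 10 genes; Tlr4 and Tlr7 had none. The 250 bases before the RefSeq start were searched on both strands for GAGGAA, the core letters bound by the myeloid factor PU.1. They were also searched for the interferon-stimulated response element (GAAA, any 2 bases, GAAA) and for TGANTCA, the AP-1 site. GAGGAA occurred in at least 1 start window of Tlr1, Tlr8, Tlr9 and Tlr13, that is 4 of 8 genes, and in 23.3% of all 32851 windows; 2 of the genes, Tlr1 and Tlr6, have 2 windows each. The response element occurred in Tlr6 alone of the 8 and in 2.98% of windows, and TGANTCA in Tlr9 alone and in 6.75% of windows. These matches are letters in a window and not shown to be sites. RefSeq starts can differ from the deposited gene bounds. Windows of Tlr1, Tlr2, Tlr3, Tlr6 and Tlr13 lie partly or wholly inside those bounds, among them the Tlr6 window with the response element. The windows of Tlr13 (chrX:106143025-106143274, plus strand), Tlr9 (chr9:106222348-106222597, plus strand) and Tlr2 (chr3:83841609-83841858, minus strand) are shown, as Tlr2 and Tlr13 are the most abundant members with the shared profile and Tlr9 the member with the most kinds of match; capitals mark any match, and Tlr2 has none.
Tlr13: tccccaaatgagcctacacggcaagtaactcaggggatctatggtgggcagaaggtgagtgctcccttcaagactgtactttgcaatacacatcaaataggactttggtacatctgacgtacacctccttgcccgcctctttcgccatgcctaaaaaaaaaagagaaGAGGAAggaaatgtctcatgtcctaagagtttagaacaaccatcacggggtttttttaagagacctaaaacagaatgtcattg
Tlr9: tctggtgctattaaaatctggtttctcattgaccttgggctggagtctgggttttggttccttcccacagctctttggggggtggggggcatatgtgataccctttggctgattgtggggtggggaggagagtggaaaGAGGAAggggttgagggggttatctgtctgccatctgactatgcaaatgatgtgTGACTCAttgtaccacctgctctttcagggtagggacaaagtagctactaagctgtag
Tlr2: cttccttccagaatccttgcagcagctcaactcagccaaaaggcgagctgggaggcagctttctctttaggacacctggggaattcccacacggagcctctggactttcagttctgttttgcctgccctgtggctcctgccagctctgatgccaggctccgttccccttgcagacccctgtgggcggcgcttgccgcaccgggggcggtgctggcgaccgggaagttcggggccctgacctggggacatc

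By a fixed rule, the 3 members that varied most over the 6 libraries were set beside the 10034 other protein-coding genes with a mean of at least 5 CPM. For Tlr5 the nearest mean-centred profiles were those of Junb, Tob1 and Hacd1, with root mean square differences of 0.0740, 0.0756 and 0.0833 log2 units over 6 libraries. For Tlr1 they were those of Abraxas1, Tmod1 and Klrd1 (0.0994, 0.102 and 0.110). For Tlr3, which is low and noisy, the nearest were Cdc14b, Rpl7a and Rtp4 at 0.191, 0.213 and 0.217; Rpl7a is a ribosomal protein gene with near-identical copies in the genome, so its counts are uncertain. These are descriptions over 6 libraries, picked from 10034 candidates, with no test.

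The 2 other mouse genes of the family, Tlr11 and Tlr12, encode endosomal receptors for protozoan profilin. Tlr12 (ENSMUSG00000062545, chromosome 4, 128615443 to 128618619) was at 5.48, 4.595 and 4.14 CPM in unloaded 1 to 3, against 6.35, 7.41 and 8.22 CPM in control 1 to 3. All 3 unloaded values lay below all controls, an order seen in 6.4% of all tested genes. The log2 fold change was -0.63 ± 0.22 (SE; 95% interval -1.10 to -0.15), or -0.75 without unloaded 1, but the edgeR adjusted p was 0.801 and the gene was not called. Tlr11 had 5 to 17 counts per library and a log2 fold change of -0.30 ± 0.53 (edgeR adjusted p = 0.957).

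Around the receptors, 98 genes were listed by role, with 11 innate sensors outside the receptor family among them, and 92 were tested. None was called in either direction by edgeR, as for all genes, and 0 by DESeq2, which gave Il6 and Tnip3 no adjusted p. At an unadjusted p under 0.05 there were 7, all with negative fold changes, beside 3.18% of all tested genes in that direction and 5.85% in either. They were Ly86, Pik3ap1, Ticam2, Nlrp3, Tnf, Clec7a and Ccl3, of which Ccl3, a chemokine gene, lay outside the naming rule and was named after its values were seen. In 10 of the 92, or 10.9%, all unloaded values lay below all controls, against 6.4% of all tested genes, and in 0 they lay above. Counted in either direction, the share of the 92 was thus 10.9%, beside 11.9% of all tested genes. Negative fold changes made up 59.8% of the 92 and 48.8% of all tested genes, with a median log2 fold change of -0.04 against 0.01. Under upper-quartile scaling, which moved the median of all genes to 0.02, negative shares were 52.2% of the 92 and 44.9% of all genes. Without unloaded 1 they were 69.6% and 49.5%. In that fit 12 of the 92, or 13%, had an unadjusted p under 0.05, against 8.98% of all genes in either direction. All 12 were lower in unloaded marrow, beside 5.18% of all genes in that direction. By edgeR 0 of the 92 were then called, against 0.0324% of all genes. List medians below that rest on unloaded 1 are given both ways.

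Surface co-receptors and accessory proteins had negative fold changes in 4 of 6, with a median of -0.13, or in 3 of 6 with a median of -0.04 without unloaded 1. Cd14, which hands lipopolysaccharide to Tlr4, was at 75.8, 16.9 and 33.7 CPM in unloaded 1 to 3, against 34.9, 16.9 and 20.5 CPM in control 1 to 3. Like Tlr4, it was highest in library 1 of each group, and its log2 fold change was 0.80 ± 0.44 (edgeR adjusted p = 0.883) but 0.07 ± 0.30 without unloaded 1. Ly96, the other partner of Tlr4, was at 1.24 to 2.28 CPM in unloaded and 1.77 to 2.41 CPM in control libraries (log2 -0.29 ± 0.33; edgeR adjusted p = 0.930). Ly86, which encodes the partner of the Tlr4-like receptor Cd180 on B cells and myeloid cells, was at 30.3, 32.6 and 36.9 CPM in unloaded 1 to 3, against 40.7, 39.8 and 44.4 CPM in control 1 to 3. The groups did not overlap, but the log2 fold change of -0.32 ± 0.12 had an edgeR adjusted p of 0.801.

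Chaperones and trafficking genes, 4 of 7 with negative fold changes, lay within -0.08 to 0.10, and their median of -0.02 was -0.13 without unloaded 1. Unc93b1, the escort of the endosomal receptors, was at 371 to 425 CPM in unloaded and 408 to 422 CPM in control libraries (log2 -0.08 ± 0.10; edgeR adjusted p = 0.936), and its log2 fold change was -0.13 ± 0.08 without unloaded 1. Lrrc59, which helps nucleic-acid receptors leave the endoplasmic reticulum, had 0.10 ± 0.10. Of the 9 endolysosomal enzymes that cut the receptors or their ligands, 3 had negative fold changes and the median was 0.01, against 9 of 9 and -0.09 without unloaded 1. The highest log2 fold change among the 9 was that of Pld4, an exonuclease that removes ligands of Tlr7 and Tlr9 (0.16 ± 0.22, edgeR adjusted p = 0.941). Pld4 was at 340, 175 and 177 CPM in unloaded 1 to 3, against 220, 203 and 195 CPM in control 1 to 3. Again unloaded 1 and control 1 were highest, and without unloaded 1 its log2 fold change was -0.23 ± 0.09. Rnaset2a, a ribonuclease that prepares RNA ligands and has the near-identical copy Rnaset2b, had -0.59 ± 0.38 at 0.701 to 1.47 CPM.

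Adaptors had a median log2 fold change of -0.25 over 5 tested genes, 3 of them negative, and Sarm1 was too low to test. Without unloaded 1 the median was -0.20, with 4 of 5 negative. Myd88, the adaptor of all members but Tlr3, was at 120, 87.6 and 115 CPM in unloaded 1 to 3, against 96.9, 112 and 90.9 CPM in control 1 to 3, a log2 fold change of 0.10 ± 0.14 with overlapping groups, and 0.02 ± 0.12 without unloaded 1. Pik3ap1, an adaptor that links the receptors to phosphoinositide signalling, was at 91.3, 92.4 and 94.9 CPM in unloaded 1 to 3, against 123, 112 and 112 CPM in control 1 to 3. Its groups were separate, with a log2 fold change of -0.32 ± 0.10 and an edgeR adjusted p of 0.751, the smallest among the 92 genes. The bridging adaptors Tirap and Ticam2, of which Ticam2 serves Tlr4 on its way to interferon, were separate between groups in the same direction (log2 -0.25 ± 0.11 and -0.37 ± 0.16; edgeR adjusted p = 0.847 for both). Ticam1, which encodes TRIF, had 0.09 ± 0.15, and -0.06 ± 0.12 without unloaded 1.

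Kinases and ubiquitin enzymes had a median log2 fold change of -0.0016 over 18 genes. Peli1, a ubiquitin ligase of IRAK proteins, had -0.22 ± 0.10 and Irak2, a kinase of the MyD88 complex, had -0.17 ± 0.10, both with separate groups and edgeR adjusted p of 0.847 and 0.896. The 10 transcription factors had a median of -0.03, with Irf8, a factor of monocyte and dendritic cell development, at -0.15 ± 0.10 and Irf1, an interferon regulatory factor, at -0.16 ± 0.12. Without unloaded 1 all 10 were negative with a median of -0.16, and Irf1 was at -0.30 ± 0.08 (edgeR adjusted p = 0.320). Negative regulators had negative fold changes in 8 of 13, with Tnfaip3, which encodes the deubiquitinase A20, at -0.31 ± 0.17 and Nfkbia, the inhibitor of NF-kB, at -0.19 ± 0.12. With all 6 libraries none of these had an edgeR adjusted p under 0.847.

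Response genes, which the pathway induces, had a median of -0.26 with 10 of 13 tested fold changes negative, and a median of -0.10 with 8 of 13 negative without unloaded 1. Nlrp3, the inflammasome sensor, was at 63.8, 63.6 and 56.1 CPM in unloaded 1 to 3, against 82.5, 74.8 and 70.0 CPM in control 1 to 3, without overlap (log2 -0.31 ± 0.11; edgeR adjusted p = 0.801). Tnf, which encodes the inflammatory cytokine, was at 15.93, 26.5 and 25.5 CPM in unloaded 1 to 3, against 32.1, 32.2 and 30.3 CPM in control 1 to 3, also without overlap (log2 -0.48 ± 0.18; edgeR adjusted p = 0.804). Unloaded 1 held the lowest Tnf value, and without it the log2 fold change was -0.28 ± 0.10. Il10, Il12b, Ifnb1, Nos2 and Saa3 were too low to test, and Ifnb1 had 0 counts in each library, which allows up to 0.172 to 0.191 CPM, 3 counts in a library.

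**Figure D5:**
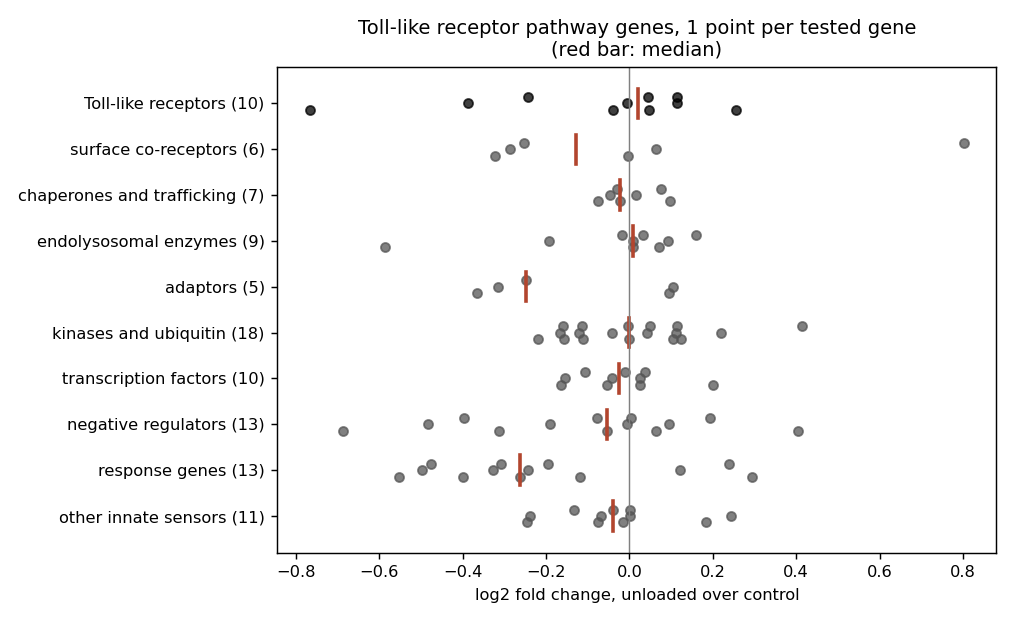
Log2 fold changes, unloaded over control (horizontal axis; positive is higher in unloaded marrow), of the tested genes of each role, 1 point per gene, with the number of genes in parentheses and a red bar at the median. The receptors centre at 0.02, the adaptors at -0.25 and the response genes at -0.26; without unloaded 1, which is not plotted, the adaptors have -0.20 and the response genes -0.10.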

How the data were processed

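Bone marrow RNA from 6 libraries, 3 unloaded and 3 control, was sequenced after TRNzol extraction and NEBNext Ultra library preparation, per the labels' protocols. CASAVA, HISAT2 2.0.5, featureCounts 1.5.0-p3 and the mm10 build are named per the submitters' processing notes, while for the annotation release, the strand setting and multi-mapping reads the sources used here give nothing. The deposited values are raw read counts per gene without normalization. The gene lengths used for CPM per kb are other numbers the authors deposited in the same table.

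Libraries were placed in groups by their titles. Genes were filtered with filterByExpr (15015 of 54532 kept), scaled by TMM and compared by edgeR 4.0.16 (glmQLFit, glmQLFTest; R 4.3.3), with Benjamini-Hochberg adjustment over all tested genes and a threshold of 0.05. Standard errors were derived from the log2 fold change and the F statistic, and 95% intervals use the t distribution with the degrees of freedom of the fit. Log2 CPM used a prior count of 2. One count was worth 0.0572 to 0.0637 CPM, and limits of 3 counts cover counting error only. All library pairs differed by more than sampling noise (chi-square per degree of freedom 6.64 to 34.3 over 15 pairs). The fits were tested on simulated data. Coding sequences came from GENCODE M21 and promoters from RefSeq.

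The members and gene lists were chosen with earlier results of these data known, so no count over a list is independent support. Named were all 10 members, 2 genes of smallest p per role list, a fixed set of co-receptors and adaptors, and the nearest profiles. Alternatives were DESeq2 1.42.0, limma-voom (limma 3.58.1) with and without library weights, robust edgeR, RLE and upper-quartile scaling, other filters and gene sets, each library left out, and the replicate number as a block; DESeq2 without unloaded 1 was added after seeing the data.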

Additional observations from a re-analysis of the deposited data

How the results depend on the processing

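None of the 10 receptor genes was called under any of 18 alternatives, the smallest adjusted p being 0.192. Tlr1, Tlr3, Tlr5 and Tlr9 kept the sign of their fold change in all that could test them. Tlr3 fell out of the filter of at least 1 CPM in 3 libraries, and DESeq2 gave it no adjusted p with or without unloaded 1. Over all genes edgeR called 0, against 35 by DESeq2, 183 without a low-count filter, 8 by limma-voom with library weights and 67 by DESeq2 without unloaded 1, and 0 to 5 with each library left out; the 5 were called without unloaded 1. The unadjusted count was 879 by edgeR and 871 by limma-voom, which called 0. Without a low-count filter 5 pathway genes were called, Dusp1, Ptgs2, Cd14, Atf3 and Saa3, and the cause was not tested. Deviations from the group mean had correlations of 0.0309, -0.0633 and 0.0185 between same-numbered libraries, and of -0.088 to 0.0939 between the others. As they are deviations from means of 3 libraries, these values cannot decide if same-numbered libraries were handled together. With the number as a replicate block 1 gene was called over all and 0 of the 10. With each library left out the log2 fold change ran from -0.10 to 0.27 for Tlr2, -0.087 to 0.17 for Tlr4, -0.28 to 0.11 for Tlr6, -0.10 to 0.16 for Tlr7, -0.074 to 0.37 for Tlr8, -0.22 to 0.13 for Tlr13 and -0.70 to 0.062 for Tlr11. Signs also turned for Tlr13 under upper-quartile scaling (0.015) and protein-coding genes alone (0.0019). They turned with library weights for Tlr2 (-0.076), Tlr4 (-0.043) and Tlr7 (-0.072), and by DESeq2 without unloaded 1 for Tlr2 (-0.10), Tlr4 (-0.089), Tlr7 (-0.10) and Tlr8 (-0.076). None of these genes was called under any of them. Tlr3 and Tlr11 had at most 25 counts in a library, and whether depth limits their tests was not tested.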

Other observations

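The 92 tested genes above include 11 innate sensors outside the receptor family, which meet fungal glucans, cytosolic RNA or DNA and cell wall fragments. Of these 11, 7 had negative fold changes, with a median log2 fold change of -0.04, or -0.12 without unloaded 1, again with 7 negative. By edgeR 0 were called. At an unadjusted p under 0.05, 1, or 9.09%, was lower, beside 3.18% of all tested genes in that direction and 5.85% in either. The 1 is Clec7a, already named above. Clec7a, which encodes the beta-glucan receptor dectin, was at 110, 101 and 112 CPM in unloaded 1 to 3, against 120, 131 and 129 CPM in control 1 to 3. The groups were separate, with a log2 fold change of -0.24 ± 0.10 and an edgeR adjusted p of 0.805. Ifih1, the sensor of long RNA duplexes in the cytosol, had -0.25 ± 0.15 (edgeR adjusted p = 0.891), and -0.12 ± 0.11 with unloaded 1 left out. Tmem173, the STING gene, was at 82.6, 46.3 and 52.8 CPM in unloaded 1 to 3, against 51.5, 53.8 and 54.6 CPM in control 1 to 3, which gave 0.18 ± 0.19 on the log2 scale from all libraries and -0.11 ± 0.09 with unloaded 1 left out; it was chosen after its values were seen.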
